A study of Canis lupus familiaris with 8 samples.

Results

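The pyruvate dehydrogenase complex and the enzymes that switch it on and off were examined in dog heart, through every probe set that the platform annotation gives a single symbol among 10 genes. Of those genes, 8 were found among the 6540 genes named on the array, and they held 12 of its 23913 probe sets. They were the E1 subunits PDHA1 and PDHB, the E3 enzyme DLD, the E3-binding protein PDHX, the kinases PDK1, PDK2 and PDK4, and the phosphatase PDP1. PDHA1 had 4 probe sets, PDK1 had 2, and the remaining 6 genes had 1 each. The E2 enzyme DLAT and the kinase PDK3 had no probe set under this rule and were not analysed here.

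The study hybridised total cardiac RNA of 8 male dogs, weighing 23 to 27 kg, to Affymetrix canine arrays, each dog on an array of its own. The HHcy group was 4 dogs given methionine in their drinking water for 2 weeks, which raises blood homocysteine (hyperhomocysteinemia, HHcy). The control group was 4 dogs, for which the labels name no treatment, and heart RNA was taken at 2 weeks from both groups. The series asks how chronic HHcy changes cardiac gene expression, and its title names substrate metabolism. The sources used here do not give breed, age or heart chamber.

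The complex sits in the mitochondrial matrix and turns pyruvate into acetyl-CoA, the step that commits carbon from glucose and lactate to oxidation. Its E1 enzyme decarboxylates pyruvate with thiamine pyrophosphate, E2 carries the acetyl group on lipoic acid, and E3 reoxidises the lipoic acid. Pyruvate dehydrogenase kinases phosphorylate serines of the E1 alpha subunit and switch the complex off, and pyruvate dehydrogenase phosphatases switch it on again. In heart, which oxidises mostly fatty acids, PDK4 is the kinase known to rise with fasting and diabetes, through PPAR and FOXO transcription factors.

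Array HHcy 6 stood apart from the other 7, and each fold change for these 8 genes is given with and without it. Its 11 tested cardiomyocyte markers of 12 summed to 16498 signal units, against 225831 to 254385 on HHcy 5, 7 and 8 and 210474 to 327260 on controls. On that array the troponin TNNT2 had a signal of 24.5 and the ventricular light chain MYL3 one of 27.4, while the other 9 tested markers ran from 392.9 for TNNI3 to 6889 for MYH7. Its 3 tested smooth muscle markers summed to 60261, against 4688 to 5842 on HHcy 5, 7 and 8 and 1614 to 6965 on controls. No marker of either list was at 0. The 3'/5' signal ratio of actin, a sign of RNA breakdown when high, reached 599.6 on HHcy 6. It was 15.3 on HHcy 5, 2.67 on HHcy 7 and 1.69 on HHcy 8, while controls had 0.378 to 2.49. By the same ratio of GAPDH, HHcy 5 was the highest array, at 17.2, and HHcy 6 had 10.5. HHcy 7 had 5.14 and HHcy 8 had 3.56, while controls had 1.46 to 3.76. The part of these differences in the results below was not tested, and in tissue RNA fewer cells of a type cannot be told apart from less RNA per cell.

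None of the genes of the complex or its regulators passed the test between HHcy and control hearts. Signals were compared as log2(signal + 24) with limma over the 14301 probe sets left after the dimmest 40% were filtered out, with Benjamini-Hochberg adjustment at 0.05. Of the 12 member probe sets, 10 were tested, and 0 passed, where 0.0979% of all tested probe sets did. Without HHcy 6 also 0 passed, against 0.126% of all, and without the filter on dim probe sets 0 of the 12 passed, against 0.0587%. At an unadjusted p under 0.05 there were 2, PDHX and the brightest PDHA1 probe set, against 17.8% of all tested probe sets, so that count lay near the background. Fold changes here are on the log2(signal + 24) scale, which understates those of dim probe sets, and the median over all tested probe sets was 0.15.

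**Figure D1:**
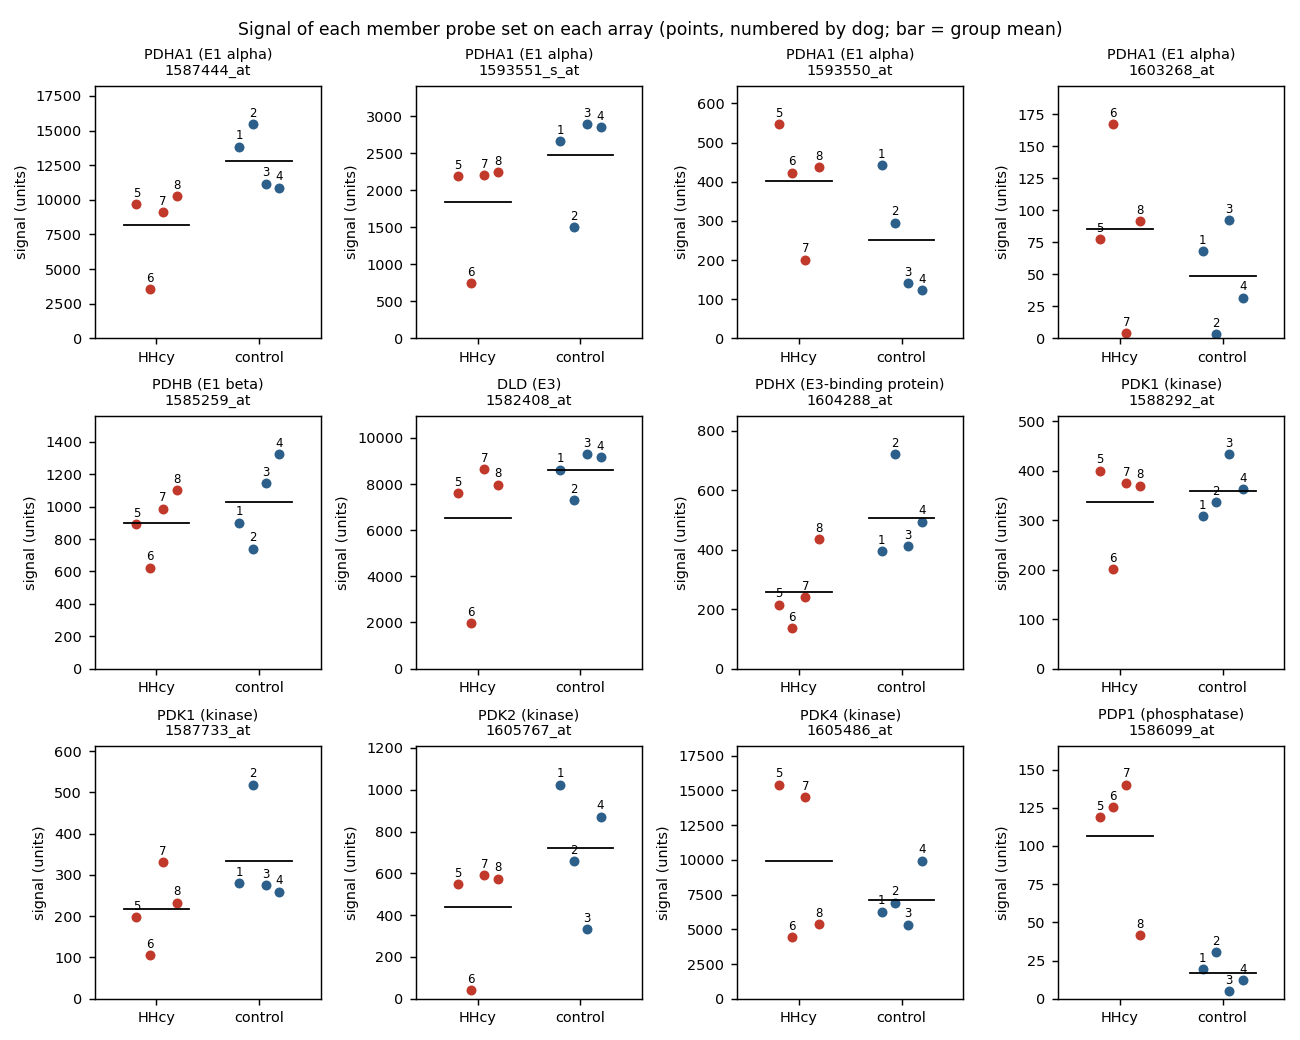
Signal, in linear units from 0, of each of the 12 member probe sets in HHcy (left, red) and control (right, blue) hearts. Each point is 1 dog, numbered as in the labels, and the bar is the mean of the group's 4 dogs. HHcy 6 is the lowest point for PDHA1 on its brightest probe set, at 3567, and for PDK2, at 40.6, while HHcy 5 and HHcy 7 are the highest for PDK4, at 15419 and 14536.

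PDHA1 encodes the E1 alpha subunit, which binds the thiamine cofactor and carries the serines that the kinases phosphorylate. Its brightest probe set, 1587444_at, had signals of 9683, 3567, 9126 and 10281 on HHcy 5, 6, 7 and 8, against 13840, 15455, 11169 and 10874 on control 1, 2, 3 and 4. All HHcy arrays lay below all control arrays, although HHcy 8 and control 4 were close. The group means were 8164 ± 3101 in HHcy and 12835 ± 2198 in control (SD, n = 4 each). Its log2 fold change was -0.75 ± 0.33 (SE; 95% confidence interval -1.48 to -0.016), with a limma adjusted p of 0.275 that ranged from 0.242 to 0.975 over its alternatives. The highest of these came with the log2 3'/5' ratio as covariate, where the log2 fold change was -0.099. That ratio averaged 3.38 ± 2.28 in HHcy and 0.90 ± 0.90 in control (SD; exact two-sided permutation p = 0.0857). It was highest on HHcy 6, at 6.31. Values with this covariate therefore cannot be fully told apart from the group difference or from HHcy 6. Without HHcy 6 the log2 fold change was -0.39 ± 0.18 (SE; limma adjusted p 0.338). Probe set 1587444_at was the only one of the 10 tested member probe sets whose groups did not overlap in either direction, against 11.4% of all tested probe sets.

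The other PDHA1 probe sets did not follow the brightest one in all dogs. Probe set 1593551_s_at, whose suffix in Affymetrix naming marks probes that can match more than 1 transcript, had signals of 2187, 745.3, 2205 and 2244 on HHcy 5 to 8. Its control signals were 2662, 1505, 2892 and 2858 on control 1 to 4, so that HHcy 5, 7 and 8 lay between control 2 and the other controls. Here the log2 fold change was -0.50 ± 0.38 (SE; 95% interval -1.33 to 0.33), with a limma adjusted p of 0.485. It was -0.12 without HHcy 6 (limma adjusted p 0.843) and -0.035 with the log2 3'/5' ratio as covariate.

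Probe set 1593550_at lay the other way, with 546.9, 423.6, 201.1 and 438.2 on HHcy 5 to 8 against 442.0, 295.6, 140.4 and 123.6 on control 1 to 4. The groups overlapped widely, since HHcy 7 was below control 1 and 2. Its log2 fold change was 0.72 ± 0.42 (SE; 95% interval -0.20 to 1.64), with a limma adjusted p of 0.383. It was 0.67 without HHcy 6 and 0.57 with the log2 3'/5' ratio as covariate. The last one, 1603268_at, was too dim to test, with 77.8, 167.3, 4.16 and 91.6 on HHcy 5 to 8 and 68.2, 3.55, 92.7 and 31.9 on control 1 to 4. These values spread over more than the difference between the groups. Fitted without the filter on dim probe sets, its log2 fold change was 0.48 ± 0.63 (SE; limma adjusted p 0.747), and it was 0.12 when HHcy 6 was also left out.

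Agreement between PDHA1 probe sets was measured across the 8 arrays for all 6 pairs. For 1587444_at and 1593551_s_at, Pearson's r was 0.74 (exact two-sided permutation p = 0.0973, adjusted over the 6 pairs 0.471) and Spearman's rho was 0.40 (exact permutation p = 0.327, adjusted 0.654). Leaving out HHcy 6 and control 2, the arrays farthest from the median, r was 0.65 over 6 arrays (exact permutation p = 0.154, adjusted 0.308) and rho was 0.77 (exact permutation p = 0.103, adjusted 0.408). HHcy 6 was lowest on both probe sets, while control 2 was the highest of all arrays on 1587444_at and the lowest control on 1593551_s_at. Agreement with HHcy 6 alone left out was not tested. The positive r of 0.74 rests on that array, since the other signals above do not keep r positive. Among them control 2 lay at 0.28 and -0.66 from the control mean on the log2 scale, and the r of 0.65 left it out too.

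Of the other 5 pairs, r ran from -0.56 for 1587444_at with 1603268_at to 0.40 for 1593550_at with 1603268_at, and none passed (smallest exact permutation p 0.157, adjusted 0.471). Spearman's rho for them ran from -0.43 to 0.21 (smallest exact permutation p 0.299, adjusted 0.654). Without the 2 arrays farthest from the median of the brighter probe set, r ran from -0.64 to 0.82 over 6 arrays (smallest exact permutation p 0.0597, adjusted 0.308). For 1587444_at with 1603268_at it turned to 0.43 without control 2 and HHcy 6 (exact permutation p = 0.394, adjusted 0.592). The annotation gives 1593551_s_at and 1603268_at the same source sequence, and r between them was -0.24 (exact permutation p = 0.604, adjusted 0.693). On HHcy 6 that pair moved apart, with 1593551_s_at at its lowest and 1603268_at at its highest of the 8 arrays. Probe sequences were not used here, so which part of the transcript each probe set reads was not examined.

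**Figure D2:**
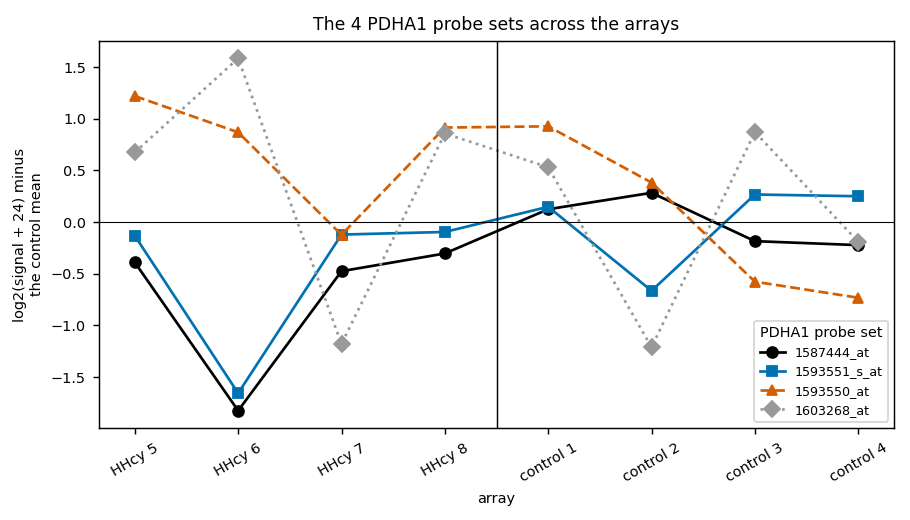
Deviation of each array's log2(signal + 24) from the control mean (y axis) for the 4 PDHA1 probe sets, with HHcy arrays on the left and control arrays on the right of the vertical line. The 2 brightest probe sets dip together on HHcy 6, to -1.82 and -1.66, while 1593550_at and 1603268_at stand at 0.87 and 1.58 there.

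PDHB encodes the E1 beta subunit, the partner of PDHA1 in the decarboxylating enzyme. Its signals were 892.5, 623.0, 987.4 and 1100.4 on HHcy 5 to 8 and 902.0, 740.8, 1143.4 and 1322.7 on control 1 to 4. All HHcy arrays but HHcy 6 lay inside the control range. PDHB had a log2 fold change of -0.18 ± 0.28 (SE; 95% interval -0.78 to 0.42) with a limma adjusted p of 0.744, which became -0.019 without HHcy 6 (95% interval -0.56 to 0.52).

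PDHX tethers E3 to the E2 core of the complex. It had signals of 215.1, 137.2, 240.9 and 434.7 on HHcy 5 to 8, against 396.1, 721.0, 411.6 and 494.7 on control 1 to 4. HHcy 5, 6 and 7 were below every control, and HHcy 8 was inside the control range. The means were 257.0 ± 126.4 in HHcy and 505.9 ± 149.8 in control (SD, n = 4 each). PDHX had a log2 fold change of -0.98 ± 0.34 (SE; 95% interval -1.73 to -0.23), an unadjusted limma p of 0.0153 and an adjusted p of 0.199. Over its alternatives the adjusted p ranged from 0.133, without HHcy 8, to 0.933, with the log2 3'/5' ratio as covariate. Without HHcy 6 the log2 fold change was -0.75 ± 0.32 (SE; limma adjusted p 0.310), and with the covariate it was -0.31.

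DLD is dihydrolipoamide dehydrogenase, the E3 that the complex shares with the 2-oxoglutarate and branched-chain 2-oxo acid dehydrogenases and the glycine cleavage system. Its signals were 7599, 1972, 8639 and 7977 on HHcy 5 to 8 and 8620, 7290, 9281 and 9157 on control 1 to 4. HHcy 6 alone was below the control range. For DLD the log2 fold change was -0.59 ± 0.42 (SE; 95% interval -1.50 to 0.32) with a limma adjusted p of 0.458. Without HHcy 6 it was -0.085 ± 0.17 (SE; 95% interval -0.46 to 0.29; limma adjusted p 0.836).

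PDK4 signals differed widely among HHcy dogs. Its signals were 15419, 4440, 14536 and 5397 on HHcy 5, 6, 7 and 8, against 6282, 6921, 5341 and 9952 on control 1 to 4. HHcy 5 and HHcy 7 were above every control, HHcy 6 was below every control, and HHcy 8 was inside the control range. The means were 9948 ± 5832 in HHcy and 7124 ± 1994 in control (SD, n = 4 each). PDK4 had a log2 fold change of 0.30 ± 0.41 (SE; 95% interval -0.60 to 1.20), with a limma adjusted p of 0.711. It was 0.62 ± 0.34 without HHcy 6 (SE; 95% interval -0.12 to 1.36; limma adjusted p 0.404), 0.022 without HHcy 5 and 0.050 without HHcy 7, so the value turned on which HHcy array was included.

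PDK2, the kinase most widely found across tissues, had signals of 548.0, 40.6, 592.1 and 575.3 on HHcy 5 to 8 and 1024.5, 658.6, 332.6 and 871.2 on control 1 to 4. HHcy 5, 7 and 8 were close together inside the control range, and HHcy 6 was far below all other arrays. Its log2 fold change of -1.02 ± 0.66 (SE; 95% interval -2.47 to 0.44) had a limma adjusted p of 0.429. Without HHcy 6 it was -0.22 ± 0.34 (SE; 95% interval -0.96 to 0.52; limma adjusted p 0.782).

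PDK1 is the kinase known as a target of the hypoxia factor HIF1A. Its brightest probe set, 1588292_at, had signals of 400.2, 200.5, 375.0 and 370.0 on HHcy 5 to 8 and 307.6, 336.1, 433.1 and 363.3 on control 1 to 4. Except for HHcy 6, the HHcy arrays lay inside the control range. The log2 fold change was -0.12 ± 0.28 (SE; limma adjusted p 0.834), and 0.089 without HHcy 6.

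The other PDK1 probe set, 1587733_at, had 198.6, 105.3, 330.6 and 232.7 on HHcy 5 to 8 and 280.8, 518.6, 274.5 and 259.3 on control 1 to 4. HHcy 5, 6 and 8 were below every control there, which on 1588292_at held for HHcy 6 alone. Its log2 fold change was -0.60 ± 0.36 (SE; 95% interval -1.38 to 0.18) with a limma adjusted p of 0.388, and -0.34 without HHcy 6 (limma adjusted p 0.627). The difference between the PDK1 probe sets was not tested, and their intervals overlap.

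PDP1 encodes the catalytic subunit of the calcium-stimulated pyruvate dehydrogenase phosphatase, which removes the phosphate that the kinases add. Its probe set was too dim to be among those tested, with signals of 119.1, 125.4, 140.1 and 41.6 on HHcy 5 to 8, against 19.3, 30.4, 4.81 and 12.3 on control 1 to 4. All HHcy arrays lay above all control arrays, as was so, in that direction, for 6.31% of the 23836 probe sets when none was filtered out. The means were 106.6 ± 44.2 in HHcy and 16.7 ± 10.9 in control (SD, n = 4 each), and no linear fold is given because the control signals lie around or under the pseudocount. Fitted without the filter, PDP1 had a log2 fold change of 1.64 ± 0.44 (SE; 95% interval 0.69 to 2.58), an unadjusted limma p of 0.00237 and an adjusted p of 0.177. A pseudocount of 6 gave 2.32 (limma adjusted p 0.189), a pseudocount of 96 gave 0.82 (adjusted p 0.185), and leaving out HHcy 6 gave 1.54 (adjusted p 0.237). Leaving out 1 array in turn, it ran from 1.48 to 1.94 (limma adjusted p 0.115, without HHcy 8, to 0.359). These alternatives for PDP1 were chosen after its values were seen. Macrophage markers were also higher on the HHcy arrays, where their 7 tested members of 7 summed to 7303 to 14008, against 3133 to 5878 on controls, with none at 0. Fibroblast markers, 4 tested of 6, summed to 17582 to 42758 on the HHcy arrays, against 11756 to 17606 on controls, with none at 0. Log2 fold changes were 1.59 for COL1A1, 2.35 for COL1A2 and 0.76 for DCN, but -0.48 for the dimmer COL3A1. The median deviation of the fibroblast markers from the control mean was 1.41, 1.63, 1.46 and 0.15 on HHcy 5 to 8. HHcy 8 was also the lowest HHcy array for PDP1. The part of either list in the PDP1 values was not tested.

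**Figure D3:**
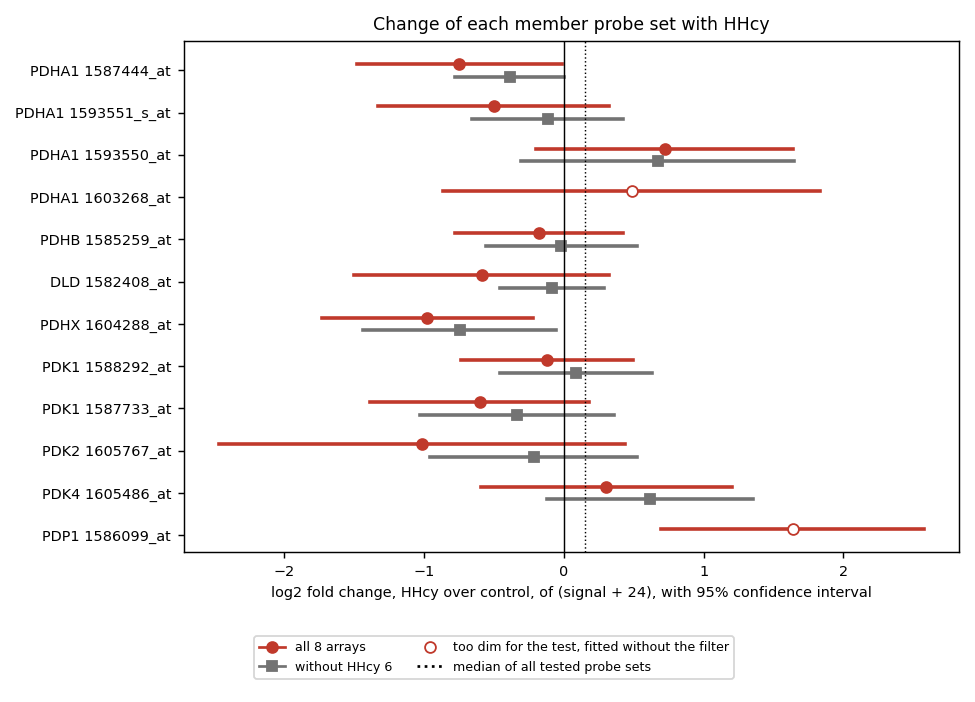
Log2 fold change of (signal + 24), HHcy over control, of each member probe set with its 95% confidence interval from limma, for all 8 arrays (red circles) and without HHcy 6 (grey squares). Open circles are the 2 probe sets too dim for the test, and the dotted line is the median of all tested probe sets, 0.15. PDK2 lies at -1.02 with all arrays and at -0.22 without HHcy 6, while PDK4 lies at 0.30 and 0.62.

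Most member probe sets had their lowest signal on HHcy 6. It was the lowest of the 8 arrays for 9 of the 10 tested member probe sets, against 17.9% of all tested probe sets, the exception being PDHA1 1593550_at. Against the control mean, HHcy 6 lay at -3.42 on the log2 scale for PDK2, -2.10 for DLD, -1.82 for PDHA1 on its brightest probe set and -1.68 for PDHX. For PDK1 it lay at -0.76 and -1.41 on its pair of probe sets, for PDHB at -0.67 and for PDK4 at -0.64. On the same array the median deviation was -4.81 for the cardiomyocyte markers and -0.77 for 6 tested of 9 mitochondrial outer membrane and import genes. The summed signal of those mitochondrial genes was 27091 on HHcy 6, against 53968 to 63054 on HHcy 5, 7 and 8 and 52007 to 62846 on controls, with none at 0. The part of these marker levels in the member values was not tested.

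Log2 fold changes were below 0 for 8 of the 10 tested member probe sets, against 5723 of all 14301. Without HHcy 6 they were below 0 for 7 of the 10, against 5998 of the 14301. Taking the brightest tested probe set of each of the 7 tested genes, the median log2 fold change was -0.59, against 0.15 over all tested probe sets. Without HHcy 6 it was -0.085 against 0.11. On HHcy 5, 7 and 8 the median deviation of these 7 genes from the control mean was -0.17, -0.022 and -0.17, within the -0.18 to 0.099 of the control arrays, while on HHcy 6 it was -1.68. Without HHcy 6 the lowest log2 fold changes among the tested member probe sets were those of PDHX, at -0.75, and of PDHA1 on its brightest probe set, at -0.39.

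**Figure D4:**
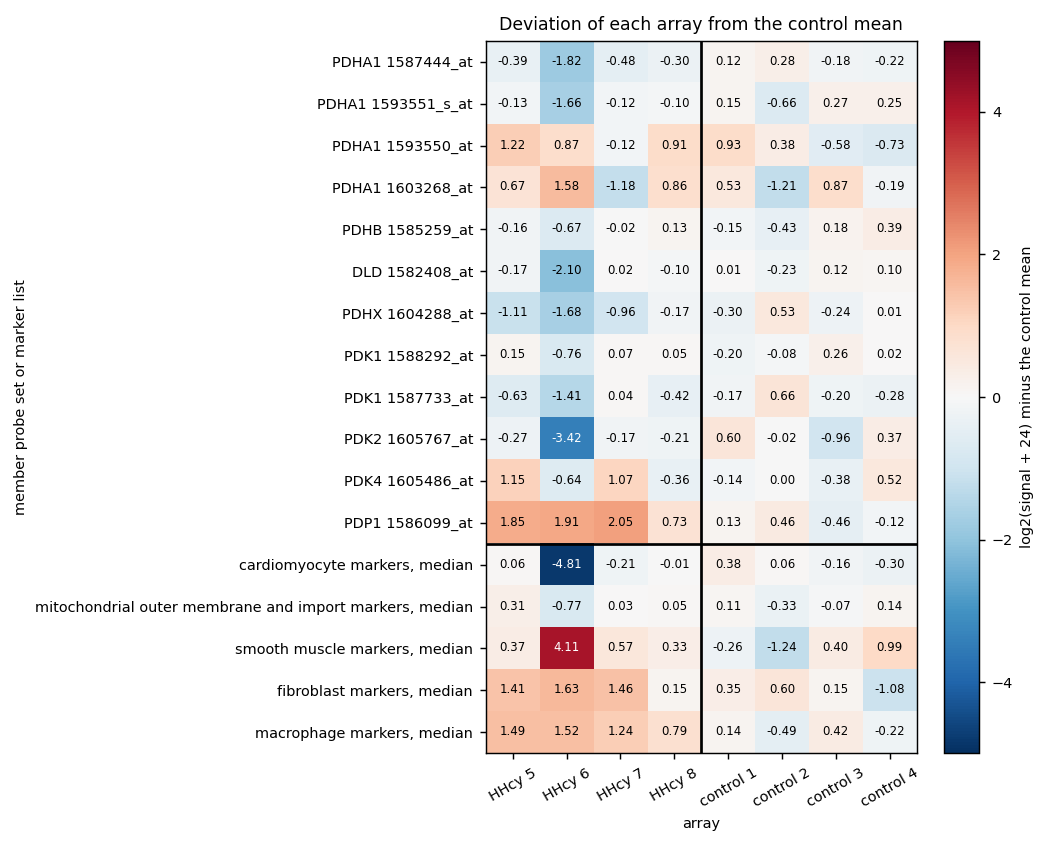
Deviation of log2(signal + 24) from the control mean on each array (columns, HHcy left of control) for the 12 member probe sets (upper rows) and the median of 5 marker lists (lower rows). Red is above and blue below the control mean. The HHcy 6 column is blue for 9 of the 10 tested member probe sets and for the cardiomyocyte markers (-4.81), and red for the smooth muscle markers (4.11).

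Genes around the complex were read from the same fit, using lists of pyruvate supply, cofactors, sister complexes, regulators and acetyl-CoA use, with the brightest tested probe set of each gene. None of their tested members passed in either direction. Of 13 genes of pyruvate supply and fate, 4 were tested, with a median log2 fold change of -0.30 (-0.024 without HHcy 6), against 0.15 over all tested probe sets (0.11 without it). LDHA, the lactate dehydrogenase subunit common in glycolytic tissue, had signals of 16157, 20413, 16556 and 18044 on HHcy 5 to 8, against 12702, 7461, 14370 and 12634 on control 1 to 4. All HHcy arrays were above all controls for LDHA, where the groups did not overlap, in either direction, for 11.4% of all tested probe sets. Its log2 fold change was 0.63 ± 0.25 (SE; limma adjusted p 0.235), or 0.56 without HHcy 6, and it was 0.32 on its other tested probe set. MPC2, a subunit of the carrier that brings pyruvate into mitochondria, had -0.71 ± 0.39 (SE; limma adjusted p 0.359), and -0.26 without HHcy 6.

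Among 12 transcription factors and coactivators known to act on kinase genes, 7 were tested, and their median log2 fold change was -0.038 (-0.080 without HHcy 6). With the median of all tested probe sets of each gene in place of the brightest one, it was 0.29. FOXO1, an activator of PDK4 transcription, had signals of 169.8, 121.2, 77.4 and 423.7 on HHcy 5 to 8, against 370.0, 1238.8, 240.5 and 455.1 on control 1 to 4. HHcy 5, 6 and 7 were below every control, HHcy 5 and 7 being the arrays where PDK4 was highest. Its log2 fold change was -1.41 ± 0.53 (SE; limma adjusted p 0.216), or -1.28 without HHcy 6, and it was -0.76 on its other tested probe set. PPARGC1B, a coactivator of PPAR and ERR receptors, had 1.06 ± 0.73 (SE; limma adjusted p 0.447), and 0.74 without HHcy 6.

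For PPAR target genes known to rise with PDK4, 10 tested of 13, the median log2 fold change was -0.20 (0.073 without HHcy 6). ANGPTL4, a secreted inhibitor of lipoprotein lipase, had signals of 313.7, 1977.5, 369.9 and 53.9 on HHcy 5 to 8, against 89.2, 149.4, 129.7 and 77.7 on control 1 to 4. HHcy 5, 6 and 7 were above every control and HHcy 8 below every control, whereas for PDK4 HHcy 6 was the lowest array. The log2 fold change of ANGPTL4 was 1.52 ± 0.74 (SE; limma adjusted p 0.306), and 0.72 without HHcy 6. PLIN2, a lipid droplet coat protein, had 0.45 ± 0.26 (SE; limma adjusted p 0.379), while its other tested probe sets had -0.56 and 1.31.

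The remaining lists had medians between -0.38 and 0.14. Sister 2-oxo acid dehydrogenase genes had -0.38 over 4 tested of 9 (-0.41 without HHcy 6). With the dimmest 60% of probe sets left out, their median was -0.19. DLST, the E2 of the 2-oxoglutarate complex, had -0.69 ± 0.41 (SE; limma adjusted p 0.387), and -0.94 without HHcy 6. Its signal was low, with means of 72.7 in HHcy and 127.6 in control. BCKDHB, the E1 beta subunit of the branched-chain complex, had -0.49 ± 0.30 (SE; limma adjusted p 0.401), or -0.20 without HHcy 6, and -1.02 on its other tested probe set. Lipoic acid and thiamine cofactor genes had a median of -0.026 over 8 tested of 13 (0.20 without HHcy 6). In that list MCAT, of mitochondrial fatty acid synthesis, had -0.52 (limma adjusted p 0.358; -0.26 without HHcy 6) and the lipoyl transferase LIPT2 had 0.57 (limma adjusted p 0.477; 0.69 without it).

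Other regulators of the complex had a median of 0.071 over 3 tested of 5 (0.38 without HHcy 6). The mitochondrial deacylase SIRT3 had 0.42 (limma adjusted p 0.422), and 0.38 without HHcy 6, while its other tested probe sets had 0.0024 and 0.29. SIRT4, of the same family, had -0.23 (limma adjusted p 0.813), and -0.43 without HHcy 6. Users of acetyl-CoA had 0.14 over 2 tested of 8 (0.13 without HHcy 6). They were the acetyl-CoA carboxylase ACACA at 0.57 (limma adjusted p 0.555; 0.38 without HHcy 6) and the thiolase ACAT1 at -0.29 (limma adjusted p 0.560; -0.11 without it).

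**Figure D5:**
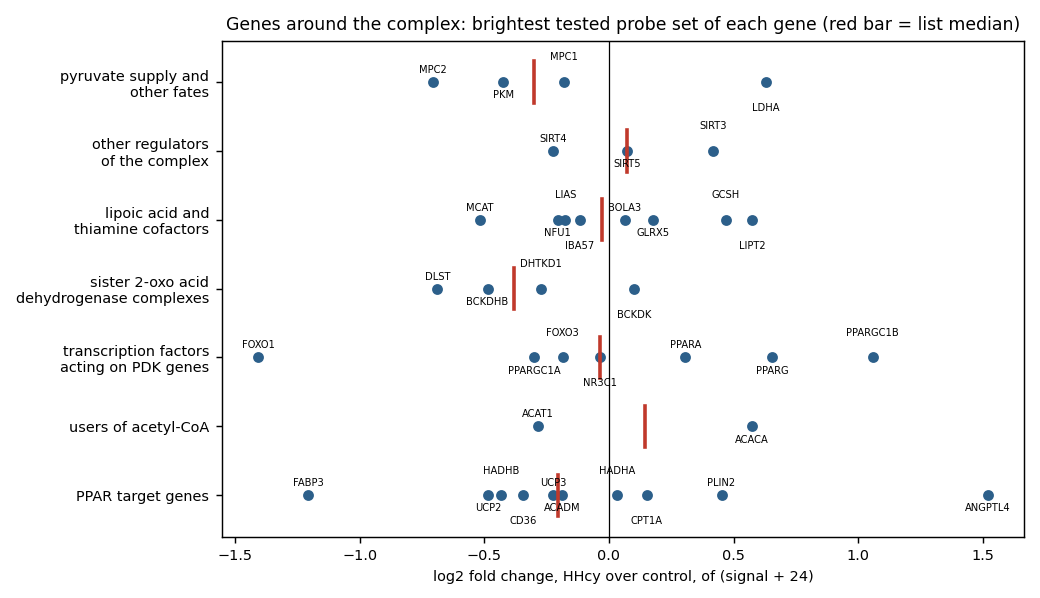
Log2 fold change of (signal + 24), HHcy over control (x axis), of the brightest tested probe set of each gene in 7 lists around the complex (rows). Each point is a gene and the red bar is the list median. FOXO1 lies at -1.41 and ANGPTL4 at 1.52, and no point passed the adjusted test.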

How the data were processed

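Probe set intensities of 8 arrays were used as deposited. They are linear values from MAS5 (version not stated), per the submitters' processing notes. The mean signal with 2% left out at each end was 500.08 to 500.10 units on every array, and no scaling was added. Scanner files, detection calls and probe sequences were not used here. Precision is limited by having 4 arrays per group. Groups came from the sample titles, and no batch is given in the labels.

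The platform annotation gave 1 symbol to 10549 probe sets, several to 138 and none to 13226. Of the 8 genes examined, 7 were found in the RefSeq gene table through their gene ID and PDHA1 through its symbol only. Coordinates are not given because the array names no build.

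Control probe sets (77) and the dimmest 40% (mean log2 value of the 8 arrays) were left out, and 14301 were tested as log2(intensity + 24) with limma 3.58.1 in R 4.3.3 (lmFit, eBayes with an intensity trend, Benjamini-Hochberg at 0.05). The pseudocount is near the 20th percentile of all values. The fit was tested on simulated data. Alternatives were quantile and median scaling, pseudocounts of 6 and 96, no filter, leaving out the dimmest 60%, no intensity trend, array weights, a covariate for the actin and GAPDH 3'/5' ratios (mean log2), and leaving out arrays. Every probe set of the named genes is described, and from each list passing genes and the 2 of lowest p. Members and lists were chosen with earlier results of these data known.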

Additional observations from a re-analysis of the deposited data

Results flagged for a closer look

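Within groups of 4, an array was marked where its gap to the nearest of the others, on the log2 scale, divided by the group's range, exceeded Dixon's 95% critical value. Of 24 groups (12 probe sets in HHcy and in control), 8 had such an array, where about 1 in 20 groups is marked by chance. HHcy 6 was the low array in 5 of the 8. Its signal was 3567 for PDHA1 on 1587444_at, with the nearest other HHcy array at 9126, and 745.3 for PDHA1 on 1593551_s_at, with the nearest at 2187. It was 1972 for DLD, with the nearest at 7599, and 200.5 for PDK1 on 1588292_at, with the nearest at 370.0. For PDK2 it was 40.6, with the nearest at 548.0. These probe sets share an array, so the marks are not independent of each other. HHcy 8 was the low array for PDP1, at 41.6 with the nearest other HHcy array at 119.1. Control 2 was low for PDHA1 on 1593551_s_at, at 1505 with the nearest other control at 2662, and high for PDK1 on 1587733_at, at 518.6 with the nearest at 280.8.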

How the results depend on the processing

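No member probe set and no gene of the 7 pathway lists passed under any of the 19 alternatives. The lowest limma adjusted p of a member among them was 0.133, for PDHX without HHcy 8. Outside these alternatives, PDP1 fitted without the filter and without HHcy 8 had a limma adjusted p of 0.115. Of 190 member values recomputed, 181 kept their direction and 9 turned to the higher direction. With the log2 3'/5' ratio as covariate these were PDHB (0.043), DLD (0.19), PDK2 (0.32) and PDK1 on 1588292_at (0.17) and 1587733_at (0.066). PDK1 on 1588292_at also turned without HHcy 6 (0.089, in a range of -0.22 to 0.089 without 1 array in turn), without HHcy 5 and HHcy 6 (0.056) and without control 2 and HHcy 6 (0.061), and PDHB without HHcy 5 and HHcy 6 (0.054). The cause was not tested, and the covariate cannot be fully told apart from the group difference or from HHcy 6. Over all tested probe sets 14 passed, and the count was 7 with quantile scaling, 9 with the dimmest 60% left out, 76 with array weights (61 higher and 15 lower), 5 with the covariate, 5 without HHcy 5 and HHcy 6, and 3 to 31 without 1 array in turn. Quantile scaling brought the median log2 fold change of all tested probe sets to 0.012 and median scaling to -0.024, and every tested member kept its direction under both. Of 140 recomputed medians of the pathway lists, 20 moved by over 1 SD of the control arrays. Pearson's r between the 2 brightest PDHA1 probe sets ran from 0.65 to 0.75 and did not pass in any setting. The only such setting without HHcy 6 also left out control 2. On control 2 these probe sets lay apart, at 0.28 and -0.66 from the control mean. That range therefore does not cover leaving out HHcy 6 alone, where the signals do not keep r positive. Signal over background limits PDP1 and PDHA1 1603268_at, which lay among the dimmest 40%. No paired analysis was possible because the groups share no replicate numbers.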
